A study of Rattus norvegicus with 3 samples.

Results

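The sham array of this series gives the RNA levels of the rat vestibular nuclei with the balance organ left in place. It is 1 of 3 arrays, and the other arrays hold the nuclei of the operated side 1 day and 7 days after removal of the left labyrinth. All animals were adult male rats of the Sprague-Dawley strain, of 200 to 250 g, with no genetic change named. The control is a sham operation by its sample label, whereas the protocols speak of normal rats. Which side was dissected in the controls, and whether both were, is not given. The protocol names 3 rats per group because the nuclei of 1 rat gave too little RNA, so the array appears to carry pooled RNA. There is 1 array per group, so no value below has an error from animals or dissections, and no test was made. Every non-control probe of the sham array with at least 1 spot not marked as an outlier was used, which is 40972 of the 41012 probes of the design, and the probes were ranked by their level.

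The vestibular nuclei lie in the dorsal hindbrain beside the fourth ventricle and under the cerebellum. They receive the vestibular nerve and the inhibitory output of cerebellar Purkinje cells, and they drive reflexes that hold gaze and posture. Their neurons include excitatory cells that release glutamate and inhibitory cells that release GABA, glycine or both, and many of them fire spontaneously at high rates. Left and right nuclei inhibit each other through fibres that cross the midline, so loss of 1 labyrinth unbalances them.

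A level here is log2 of the scanner's processed intensity minus log2 of the array's 75th percentile, which was 5692 intensity units, and a rank is the percentile of the probe among all probes of the array. Of the 40972 probes, 33231 (81.1%) were well above background by the scanner's flag and are called detected, and 7741 were not. Levels ran from -8.75 to 3.92, and the lowest detected probe lay at -6.41. The scanner saturated on 925 probes (2.26%), all at levels of 3.31 or more, and these have only a lower bound. The brightness of a probe depends on its sequence as well as on the amount of RNA, so the order of ranks is not the order of RNA amounts between genes. The scanner's own error had a median of 0.997 on the log2 scale for probes that were not detected and of 0.148 for dim detected probes. It was 0.138 for the brighter classes. Among 263 probes printed on 10 spots, the SD between spots of those detected had a median of 0.095 and a 90th percentile of 0.198. Both are errors within 1 array.

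Names could be given to 10757 probes, which stand for 8888 genes, each represented by its brightest probe on the sham array. The named share was lowest where the array was brightest. It was 29.1% of the probes that were not detected, 18.7% of the unsaturated probes in the top 10% and 12.9% of the saturated probes. Most of the brightest signals of these nuclei therefore belong to probes without a name here.

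Olfactory receptor genes, whose proteins detect odours in the nose, served as a scale for the signal of genes with little known role in the hindbrain. Of 1085 such genes, 356 (32.8%) were detected, their median level was -7.84, and their 95th percentile was -2.11, which is rank 54.7. This value is called the olfactory receptor level below. By its construction 55 receptor genes lie above it. The highest, chosen after their values were seen, were Or6z1 at 3.00, Or2d2b at 2.45 and Or2d2 at 1.99. Or6z1 lay at 3.61 on the day 1 array and 0.60 on the day 7 array, each on 1 spot. The 99th percentile of the receptor genes was 0.17, at rank 76.5, and serves as a stricter line. Among the 7803 other named genes 84.7% were detected, 47.1% lay above the olfactory receptor level, 22.9% above the stricter line and 8.38% in the top 10% of probes, and 1.47% were saturated. Their median rank was 52.2. The shares of every gene list below are read beside these values.

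**Figure D1:**
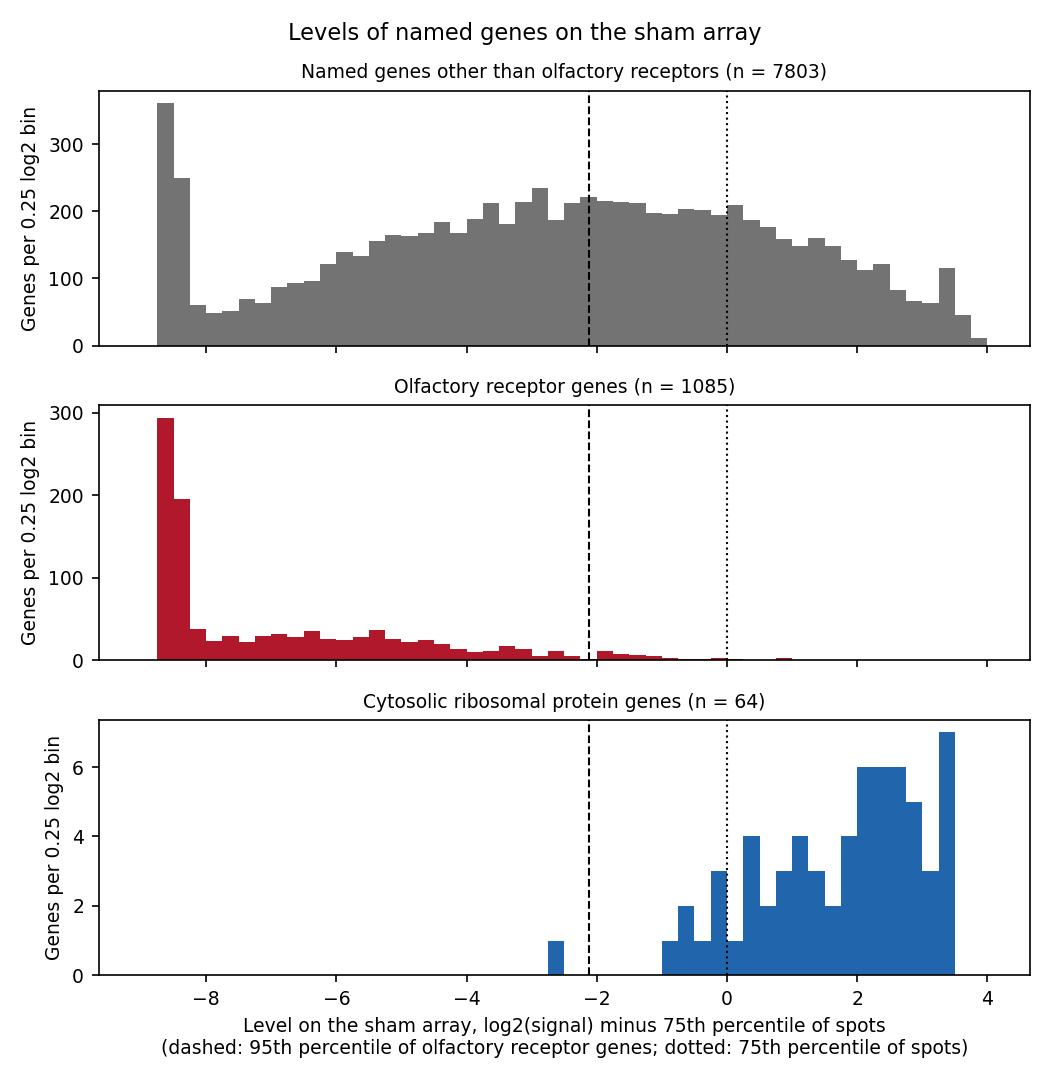
Number of genes in equal bins of level (log2) on the sham array, for 7803 named genes other than olfactory receptors (top), 1085 olfactory receptor genes (middle) and 64 cytosolic ribosomal protein genes (bottom). The dashed line is the olfactory receptor level of -2.11 and the dotted line the 75th percentile of spots. Receptor genes pile up at the floor of the array, while 63 of the 64 ribosomal protein genes lie right of the dashed line.

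The level of a gene on the sham array went together with the CpG content of its promoter. Promoters are the 250 bases before and 50 bases after the start of the gene in RefSeq, build GRCr8, of the given strand. They are shown for 5 genes that span the range. These are the saturated synaptic vesicle gene Syp, the inhibitory and excitatory vesicle transporters Slc32a1 and Slc17a6, and the liver gene Alb. The last is Or5p66b, at -7.91 a receptor gene near the median receptor level. Each CpG is in capitals.
Syp: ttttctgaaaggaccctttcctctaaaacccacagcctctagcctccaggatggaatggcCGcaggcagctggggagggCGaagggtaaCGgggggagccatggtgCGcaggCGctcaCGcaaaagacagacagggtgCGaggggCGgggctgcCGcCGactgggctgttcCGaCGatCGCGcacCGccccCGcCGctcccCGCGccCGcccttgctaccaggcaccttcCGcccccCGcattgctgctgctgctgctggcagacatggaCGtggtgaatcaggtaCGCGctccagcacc
Slc32a1: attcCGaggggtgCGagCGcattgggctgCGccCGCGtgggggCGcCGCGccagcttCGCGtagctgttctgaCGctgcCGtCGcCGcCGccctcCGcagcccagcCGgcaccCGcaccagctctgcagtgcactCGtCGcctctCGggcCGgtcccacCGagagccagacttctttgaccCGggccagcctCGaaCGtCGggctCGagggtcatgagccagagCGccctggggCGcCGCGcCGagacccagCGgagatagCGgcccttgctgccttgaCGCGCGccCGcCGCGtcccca
Slc17a6: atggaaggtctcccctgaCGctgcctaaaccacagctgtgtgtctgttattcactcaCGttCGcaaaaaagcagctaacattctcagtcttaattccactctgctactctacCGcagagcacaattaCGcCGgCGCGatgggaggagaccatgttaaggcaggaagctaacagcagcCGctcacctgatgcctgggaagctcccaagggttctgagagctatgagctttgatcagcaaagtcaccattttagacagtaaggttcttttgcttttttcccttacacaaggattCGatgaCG
Alb: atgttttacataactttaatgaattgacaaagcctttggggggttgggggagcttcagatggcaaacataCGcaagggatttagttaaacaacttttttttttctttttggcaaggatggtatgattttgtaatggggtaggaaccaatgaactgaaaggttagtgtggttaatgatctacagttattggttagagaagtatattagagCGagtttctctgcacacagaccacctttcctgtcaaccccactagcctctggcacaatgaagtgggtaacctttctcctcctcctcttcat
Or5p66b: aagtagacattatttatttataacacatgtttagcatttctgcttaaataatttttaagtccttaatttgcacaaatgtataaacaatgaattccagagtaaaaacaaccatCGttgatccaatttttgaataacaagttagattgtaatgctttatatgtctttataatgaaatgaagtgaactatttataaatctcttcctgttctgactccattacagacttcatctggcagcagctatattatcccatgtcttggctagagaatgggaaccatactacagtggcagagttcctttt
These windows hold 25 CpG in Syp (chrX:17536400-17536699, minus strand), 42 in Slc32a1 (chr3:167686995-167687294, plus strand) and 11 in Slc17a6 (chr1:110348197-110348496, plus strand). Alb (chr14:17906930-17907229, minus strand) holds 2, and Or5p66b (chr1:171466514-171466813, minus strand) holds 1. Slc17a6 ranks at 95.8 with a promoter of 49.0% G and C, so not every gene of high rank had a window rich in CpG.

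Over all named genes with a promoter in the table, the median number of CpG was 1 in 917 olfactory receptor genes of any level. Outside that family it was 6 in 958 genes that were not detected. It was 16 in 2355 genes detected up to the olfactory receptor level, 20 in 2463 genes above it, 23 in 437 unsaturated genes of the top 10% and 22 in 97 saturated genes. The median over all 27455 promoters of the table was 7. The step was steepest at the dim end, and the last 3 classes overlap in most of their range. Promoters with 5 CpG or fewer made up 97.2% of the receptor genes. Outside that family they made up 49.1% of undetected, 21.8% of dim detected and 6.19% of saturated genes. RefSeq may begin many receptor genes at the coding start, so their windows need not be promoters. Each class was matched to a promoter for at least 80.2% of its genes.

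Short motifs were searched as exact letters on both strands of the same windows. GGGCGG, the core of the GC box bound by Sp1, was in 29.2% of undetected genes, 51.5% of dim detected genes, 62.4% of genes above the receptor level and 72.2% of saturated genes, against 34.9% of all promoters. This motif holds a CpG itself, so it is not a separate measure. TATAAA, the TATA box, was in 19.3% of undetected genes, 9.47% of dim detected genes, 6.90% of genes above the receptor level and 11.3% of saturated genes, with 14.3% in all promoters. CCAAT lay between 37.2% and 44.3% in every class of level. TGACGTCA, the cAMP response element, was in 1.77% of undetected genes, 2.72% of dim detected genes and 3.17% of genes above the receptor level. It was in 4.12% of unsaturated genes of the top 10% and 3.09% of saturated genes, with 1.91% in all promoters. Like GGGCGG it holds a CpG, so it is not a separate measure either. By list, the median was 26 CpG in 15 neuronal markers and 22 in 51 ribosomal protein genes. It was 4.5 in 14 microglia and macrophage markers, of which most were detected, and 4 in 24 liver genes. A match is a stretch of letters and not a bound site.

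**Figure D2:**
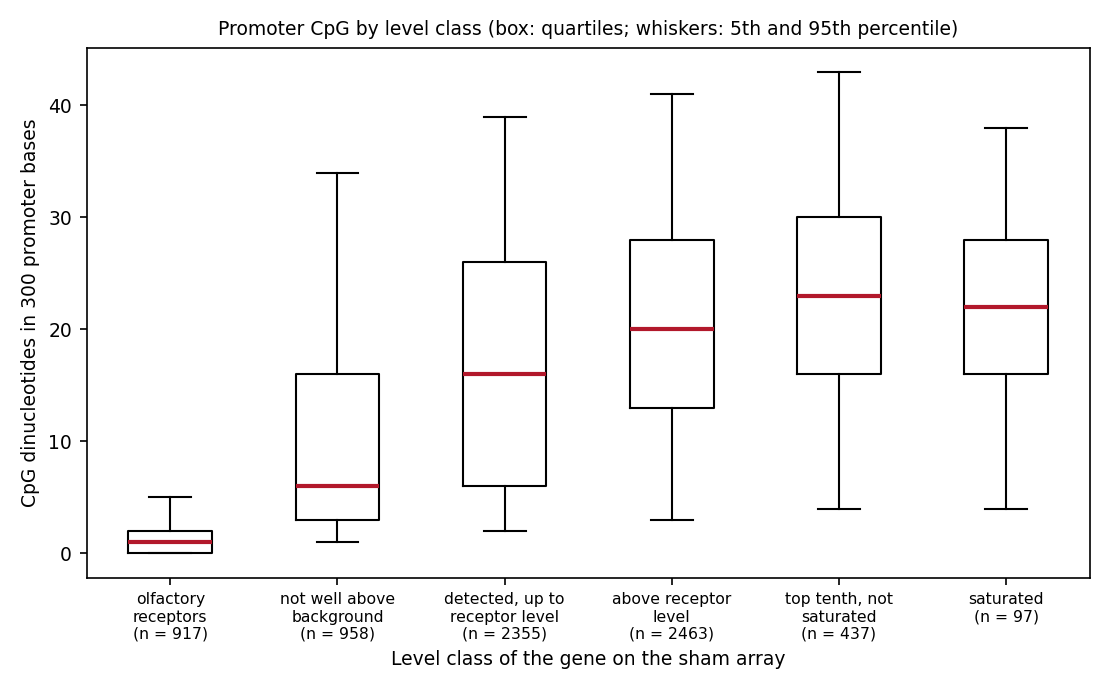
CpG dinucleotides in 300 promoter bases of named genes, by level class on the sham array. Boxes are quartiles, red lines medians and whiskers the 5th and 95th percentiles. The median is 1 in olfactory receptor genes, a class set by gene family and not by level. Outside that family it climbs from 6 in undetected genes to 23 in the unsaturated genes of the top 10%.

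The tissue label was checked with genes of position. Only 7 of 29 hindbrain genes were named on the array, and 3 lay above the olfactory receptor level. Hoxa2, a homeobox gene of the developing hindbrain, had a level of 0.57 (rank 79.8) in sham and 0.58 on day 1, and it was not well above background on day 7, at -7.64. It rests on 1 spot per array. Esrrg, an orphan nuclear receptor, was at -1.82 and Nr2f2 at -1.37, whereas Egr2 and Onecut1 were detected below the receptor level. Among 11 forebrain genes 1 lay above that level, which was Ppp1r1b, a dopamine-signalling phosphatase inhibitor abundant in striatum, at 1.19 (rank 84.6). Drd1, a dopamine receptor of striatum, and the forebrain transcription factors Dlx5 and Six3 were not detected. With few hindbrain genes named, the markers do not place the tissue by themselves.

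Tissue next to the nuclei was read in the same way. Of 18 cerebellar markers 6 lay above the olfactory receptor level. Among these were Pvalb, Reln, Itpr1, Calb1 and Grm4, and neurons outside the cerebellum use several of them. Gabra6, the GABA receptor subunit typical of cerebellar granule cells, was not detected on any array, with levels of -8.53, -7.79 and -7.74. The Purkinje cell gene Car8 was at -5.95. Of 13 choroid plexus markers 4 lay above the level. Ttr, the transthyretin that choroid plexus secretes, was at -1.14 in sham, -2.35 on day 1 and -1.24 on day 7, while Kl and Aqp1 were not detected. Of 7 ependymal cilia markers 1 did, the ciliary regulator Foxj1 at -2.02. The part of such neighbouring tissue in other levels was not tested.

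The cells of nervous tissue gave the strongest marker lists. Over all cell type lists, 101 of 146 measured genes (69.2%) lay above the olfactory receptor level and 57 (39.0%) above the stricter line, with a median rank of 71.3. In bulk tissue the number of cells of a type and the RNA per cell cannot be told apart. All 23 neuronal markers were detected, 21 lay above the receptor level and 10 in the top 10% of probes, with a median rank of 88.3. Eno2, the neuronal enolase, was saturated on all arrays, at 3.49, 3.66 and 3.53. Syp, the vesicle protein synaptophysin, was saturated in sham at 3.47 and lay at 3.50 and 3.30 after surgery. Uchl1, a neuronal ubiquitin hydrolase, lay at 3.46, 3.51 and 3.13. The neurofilament genes, which build the cytoskeleton of large axons, were Nefm at 3.03, Nefh at 2.05 and Nefl at 1.70. Each had a lower level on day 7, at 1.86, -0.25 and 0.09. The 2 neuronal markers up to the receptor level were Nsf (-2.50) and Syn1 (-4.26).

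Myelin genes came next, with all 20 detected, 19 above the olfactory receptor level and a median rank of 84.5. Plekhb1 and Tspan2, both membrane-associated proteins of oligodendrocytes, were saturated. Mbp, myelin basic protein, lay at 2.75 and 1.75 by its probes. Opalin (2.46), Mog (1.75), Mag (1.73) and Mobp (1.12) are further myelin proteins. Ugt8, which makes myelin galactolipids, was at -4.46. Only 4 precursor markers were measured, and the proteoglycan gene Cspg4 lay at -1.39.

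Astrocyte markers had 22 of 22 genes detected and 18 above the olfactory receptor level, with a median rank of 81.2. Gja1, the gap junction protein connexin 43, was saturated at 3.44 over its spots. The glutamate transporters Slc1a3 and Slc1a2 lay at 2.61 and 0.92, and Gjb6, another connexin, lay at 2.66. Gfap, the astrocyte filament protein, was at -0.35 with an SD of 0.11 over 10 spots, and at -0.45 and -0.61 on the later arrays. The water channel Aqp4 was at -1.63. S100b, a classical astrocyte marker, was at -4.11 in sham with an SD of 0.14 over 9 spots, and at -0.91 on day 1 and -2.21 on day 7.

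Immune and vascular markers lay lower. Of 20 microglia and macrophage markers 19 were detected and 13 lay above the olfactory receptor level, with a median rank of 66.4, and 4 lay above the stricter line. The lysosomal protease gene Ctss was in the top 10%, at 2.83. The microglial receptor P2ry12 was at 0.07 and the calcium-binding Aif1 at -0.05. Cx3cr1, the fractalkine receptor of microglia, was not detected in sham at -7.65, and it was detected at -4.49 and -4.80 on the later arrays. Of 15 endothelial markers 11 lay above the level, led by the glucose transporter Slc2a1 at 3.27, which other cells also use. Claudin gene Cldn5 was at -1.80 and Pecam1 at -5.44. Of 18 pericyte, smooth muscle and fibroblast markers 8 did, with Pdgfrb at -3.32 and Col1a2 at -1.25 by 1 probe and -4.92 by another. Of 12 lymphocyte markers 2 did, Nkg7 and Zap70, and Cd4 and Cd2 were not detected. Of 5 erythroid genes 3 did, with the globin genes Hbb-b1 at 3.38 and Hbb at 2.22. The part of blood left in the tissue was not tested. Among 9 Schwann cell and nerve markers, Pmp22 (1.72) and Prph (1.57) were highest, while Prx, periaxin of peripheral myelin, was not detected.

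**Figure D3:**
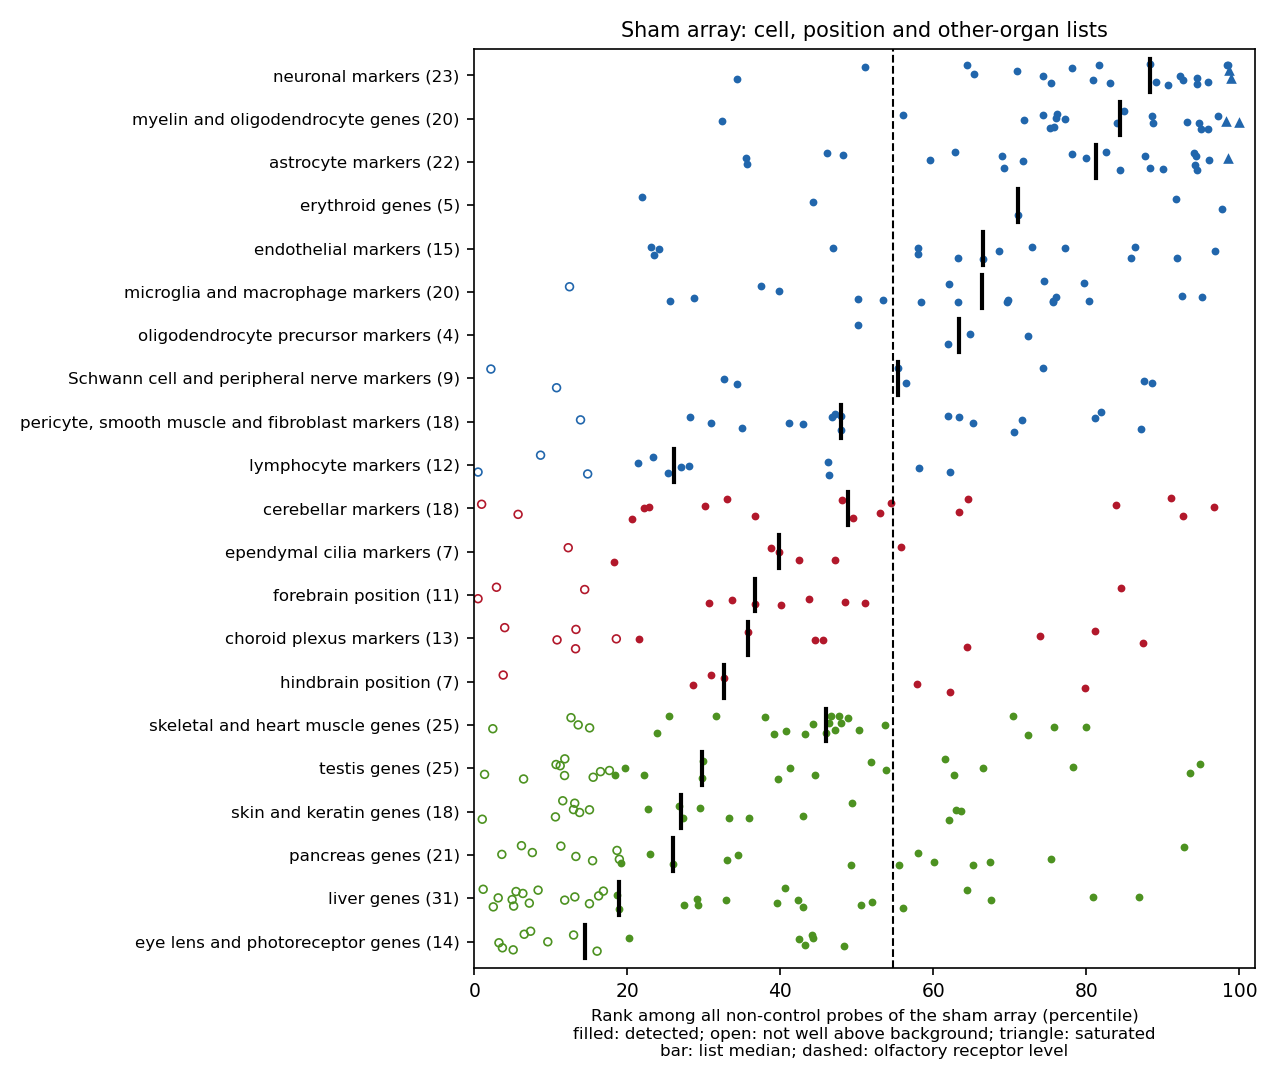
Rank of each measured member of the cell type (blue), position (red) and other-organ (green) lists on the sham array, with list sizes in brackets. Filled points were detected, open points were not well above background, triangles are saturated, bars are list medians and the dashed line is the olfactory receptor level at rank 54.7. Neuronal, myelin and astrocyte lists have medians above rank 80, and all 6 other-organ lists have medians below the line.

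Among the genes that load transmitters into vesicles, 1 excitatory and 1 inhibitory gene stood near the top of the array. Slc17a6, the vesicular glutamate transporter VGLUT2, had a level of 3.01 with an SD of 0.07 over 10 spots, and it lay at 3.03 and 3.19 on the later arrays. Slc17a7 (VGLUT1) lay at -5.35 and was not well above background on the later arrays, and Slc17a8 (VGLUT3) lay at -5.53, -5.09 and -5.13. Slc32a1, which loads both GABA and glycine, had a level of 3.41 in sham, 3.50 on day 1 and 3.40 on day 7. These 4 genes kept their side of the olfactory receptor level on every array. Of 16 genes of glutamate release and uptake, 12 lay above that level, with a median rank of 79.2. Slc1a1, a neuronal glutamate transporter, was at 1.39.

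The genes of the enzymes that make GABA lay on both sides of the olfactory receptor level. Gad1, which encodes the glutamate decarboxylase GAD67, had 3 probes, at -5.26, -5.47 and -5.56. Its brightest probe lay at -7.25 on day 1, where it was not detected, and at -1.87 on day 7. Gad2, which encodes GAD65, was at -1.76 in sham, -0.60 on day 1 and -0.46 on day 7. The GABA transporter gene Slc6a11 was at -2.68, and Abat, which breaks GABA down, was at -1.30. Of the 8 genes of the list 4 lay above the olfactory receptor level, with a median rank of 53.8, near that of all named genes.

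Glycine genes had a median rank of 72.8, with 7 of 10 above the olfactory receptor level. Slc6a5, the neuronal glycine transporter GlyT2 that marks glycine neurons, had a level of 0.45 in sham and 0.33 on day 1, and -4.81 on day 7. The glial transporter Slc6a9 was at -1.68. Receptor subunit genes were Glra2 at 0.11, Glra1 at -2.17, Glrb at -3.69 and Glra3 at -4.41. Glra1, the adult alpha subunit, and Glrb, the subunit it pairs with, thus both lay below the receptor level by their brightest probe, by a narrow margin for Glra1. The chloride exporter Slc12a5 (KCC2), which makes GABA and glycine inhibitory, was at 2.88, 2.92 and 2.87 on the arrays, and another of its probes was at -3.28. The importer Slc12a2 (NKCC1) was at 0.46 with an SD of 0.10 over 10 spots. Of 5 chloride cotransporter and channel genes 4 lay above the level.

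Receptors for glutamate gave middling ranks. Of 17 AMPA and kainate receptor genes 8 lay above the olfactory receptor level and none above the stricter line, with a median rank of 47.1. Gria4 (0.15), Gria2 (-0.07) and Gria3 (-0.53) are AMPA subunit genes, and Gria1 lay at -2.91 with an SD of 0.19 over its spots. Of 9 NMDA receptor genes 5 lay above the level. Grin2d was at 1.02, Grin2c at 0.70 and the obligatory subunit Grin1 at 0.31, whereas Grin2a and Grin2b were at -2.40 and -3.19. Of 9 metabotropic receptor and Homer genes 3 lay above the level. Grm4 was at -1.25 and Grm5 was not detected.

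GABA receptor genes included 10 of 19 above the olfactory receptor level, with a median rank of 60.1. The GABA-A subunit gene Gabrb1 lay at 1.56, and both GABA-B subunit genes were bright, with Gabbr2 at 1.71 and Gabbr1 at 1.31. The GABA-A subunit genes Gabrb2 and Gabra3 lay below the level, at -2.27 and -2.87.

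Cholinergic and monoamine genes were sparser. Of 9 cholinergic and motor neuron markers 3 lay above the olfactory receptor level: Prph, Ache and the vesicular acetylcholine transporter Slc18a3 (-0.25). Slc18a3 lay at 1.57 on day 1 and -1.91 on day 7. Of 20 acetylcholine receptor genes 13 were detected and 4 lay above the level, with a median rank of 27.5, and the muscarinic receptor Chrm3 was the brightest at 0.34. Of 16 monoamine neuron markers 6 lay above it. Slc18a2, which loads monoamines into vesicles, was at 2.16 by 1 probe and -2.58 by another. Hdc, the enzyme that makes histamine, was at 1.94 in sham and 2.75 on both later arrays. Tph2, the enzyme of serotonin synthesis, was at -1.09, whereas Th and Dbh of catecholamine synthesis were at -2.94 and -4.82 and the dopamine transporter Slc6a3 was not detected. Of 30 monoamine and histamine receptor genes 7 lay above the level, led by the adrenergic receptor Adra2b (1.00) and the serotonin receptor Htr2a (0.32). The histamine receptors Hrh3 and Hrh4 were at -2.16 and -4.07, and Hrh1 was not detected.

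Neuropeptide genes were detected in 32 of 33 cases, and 16 lay above the olfactory receptor level. Tac1, the precursor of substance P, was at 2.53 with an SD of 0.06 over 10 spots, and at 2.66 and 3.04 after surgery. Ucn, urocortin, was at 2.33, 3.18 and 3.38. Penk, the enkephalin precursor, was at 1.17 by 1 probe and -5.82 by another. Avp, vasopressin, was at 0.77 over 10 spots and -4.87 by another probe. Npy (0.18), Sst (0.01) and Crh (-0.29) had SDs of 0.082, 0.057 and 0.089 between spots, in that order. Receptors for peptides lay lower. Of 34, 26 were detected and 6 lay above the level, with a median rank of 34.7. The nociceptin receptor Oprl1 was at -0.87 by 1 probe, and its other probe, at -7.33, was not detected. The mu opioid receptor Oprm1 was at -3.60, and its other probe, at -6.96, was not detected. The kappa receptor Oprk1 was not detected. Across all transmitter lists, 95 of 233 genes (40.8%) lay above the receptor level and 44 (18.9%) above the stricter line. Both shares are below those of all named genes, 47.1% and 22.9%.

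**Figure D4:**
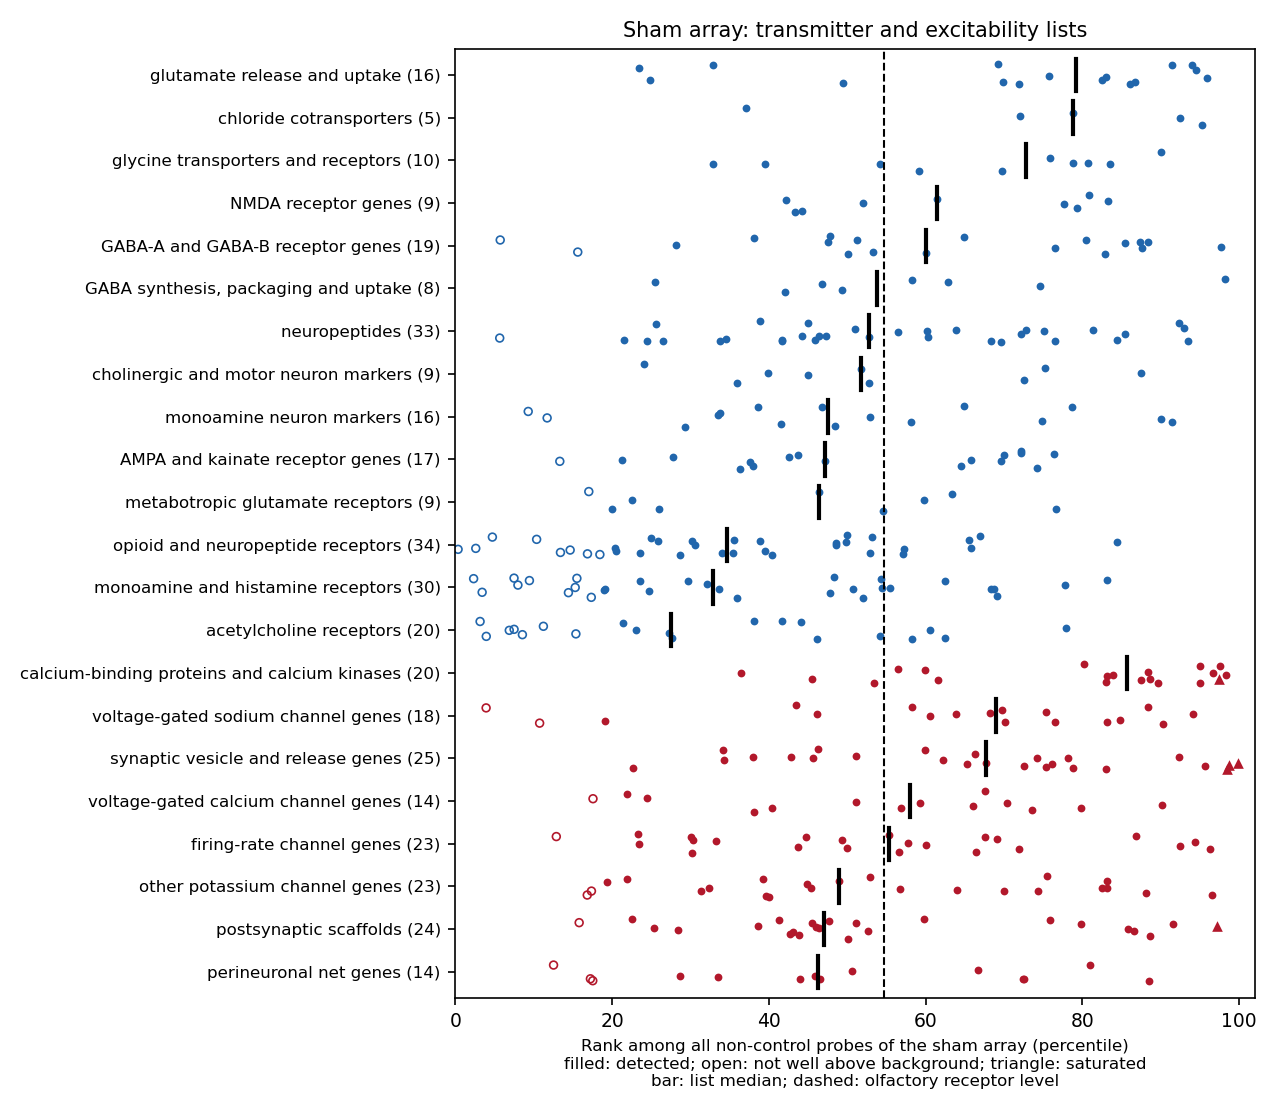
Rank of each measured member of the transmitter (blue) and excitability (red) lists on the sham array, with list sizes in brackets and symbols as for the cell type plot. Calcium-binding proteins have the highest median here (rank 85.7) and acetylcholine receptors the lowest (27.5). Slc32a1 is the rightmost point of the GABA synthesis list at rank 98.2.

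Genes of excitability held 90 of 161 members (55.9%) above the olfactory receptor level, with a median rank of 59.9. Sodium channel genes, which carry the action potential, had 13 of 18 above it. The beta subunit Scn4b, linked to resurgent current in fast-firing neurons, was at 2.63 by 1 probe and -3.41 by another. The alpha subunit genes Scn2a, Scn1a and Scn8a were at 1.99, 1.21 and -0.53. Scn10a and Scn11a, which belong to peripheral sensory neurons, were not detected. Of 14 calcium channel genes 8 lay above the level. Cacna1a, the P/Q-type channel of nerve terminals, was at 1.97 (rank 90.2) in sham, and at -4.78 on day 1 and -4.73 on day 7. It was the only probe in the top 10% in sham that lay up to the receptor level of both later arrays, and it rests on 1 spot per array.

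Channel genes tied to firing rate had 12 of 23 members above the olfactory receptor level, with a median rank of 55.3. The Kv3 gene Kcnc1, whose channels shorten spikes, had a rank of 92.5, and Kcnc2 of the same family had a rank of 43.8. Kcnc1 was close on all arrays, at 2.35, 2.47 and 2.32. Kcna1, a Kv1 gene of axons, was at 2.68 and 1.64 by its probes, and Kcna2 was at -4.72. The pacemaker channel genes Hcn2 and Hcn4 were at -1.82 and -3.15. The calcium-activated Kcnma1 was at -0.62 by 1 probe and -4.13 by another. The SK genes Kcnn1, Kcnn2 and Kcnn3 lay between -5.53 and -4.37. Of 23 other potassium channel genes 10 lay above the level, with Kcnh3 highest at 3.17.

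Calcium-binding proteins and calcium kinases had 17 of 20 members above the olfactory receptor level and a median rank of 85.7. Pvalb, parvalbumin, a buffer of fast-firing neurons, was at 3.23 in sham, 3.00 on day 1 and 2.48 on day 7. Calb2, calretinin, was at 0.62. Calb1, calbindin, had 4 probes at 1.10, -2.31, -2.63 and -5.03. Camk2b, a subunit of CaM kinase II, was at 1.88, with other probes at -1.40 and -2.99, and Camk2a was at -2.25. Atp2b2, a calcium pump, was saturated.

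Of 25 synaptic vesicle genes all were detected and 17 lay above the olfactory receptor level. Sv2b, Syp and Vamp2, all proteins of the vesicle membrane, were saturated, and Sv2b had other probes at -2.01 and -6.27. Stx1a, a membrane SNARE, was at -3.86 with an SD of 0.13 over its spots. Of 24 postsynaptic genes 8 lay above the level, with a median rank of 47.0. The neurexin genes Nrxn2 and Nrxn3, which act on the presynaptic side, were at 3.34 and 1.46, with Nrxn2 saturated. Dlg4, which encodes PSD-95, was at -3.31 over 10 spots, and Shank1 was at -2.86. Of 14 perineuronal net genes 5 lay above the level. Bcan, brevican, was at 1.72 by 1 probe and -2.49 by another. Hapln2, a link protein of the nodes of axons, was at 0.71 by 1 probe and -3.51 by another. Acan, aggrecan, was at -4.35 and Hapln1 was not detected.

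Signalling lists held 64 of 120 genes (53.3%) above the olfactory receptor level, with a median rank of 57.4. Of 24 immediate-early genes, which respond within minutes to activity, 14 did. Jund, which has a high resting level in many cells, was saturated at 3.36 by 1 probe and lay at -3.16 by another. Jun was at 2.12 over 10 spots and at 2.09 and 2.15 on the later arrays. Egr1 was at 1.47 with an SD of 0.10 over 9 spots, and at -0.29 and 1.77. Fos was at -1.16, and Arc at -5.31. Egr3, Egr4 and Npas4 were not detected. The sham list therefore spans the whole range of the array.

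Of 28 growth factor and receptor genes 19 lay above the olfactory receptor level. Ntrk2, the receptor of BDNF, was at 3.27 over 10 spots in sham, 3.16 on day 1 and 3.21 on day 7, and another probe was at -3.45. Bdnf itself was at -3.90 and -5.78 by its probes, and Ntf3 at -5.31. Glucocorticoid-responsive genes had a median rank of 77.6, with 10 of 14 above the level. With the dimmest probe of each gene the median rank was 41.8. Tsc22d3 was saturated, with another probe at -1.75, and Sgk1 was at 3.29. Fkbp5 was at 0.21, with other probes at -1.94 and -4.70. The receptor gene Nr3c2 was at 0.63 by 1 probe and -4.54 by another. Nr3c1, also a receptor gene, was at 0.06 and -1.28 by its probes. Its brighter probe had an SD of 0.81 over its spots, a larger spread than the 90th percentile of 0.198.

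Of 23 genes of cytokines, chemokines and their receptors 7 lay above the olfactory receptor level, with a median rank of 33.3. Cx3cl1, the neuronal chemokine fractalkine, was saturated at 3.67, with another probe at -0.21, and Cxcl12, Il33 and Csf1 were at 1.45, 0.52 and -0.43. Il1b was at -4.37, and Tnf, Il6, Il10, Il1a and Ccl2 were not detected. Of 18 complement and Fc receptor genes 8 lay above the level. Cd59b, which shields cells from complement, was saturated in sham only, at 3.36. The others included C1qb at 0.56, C1qa at 0.12, C3 at -1.09 and C4a at -3.22. Of 15 antigen presentation genes 6 did. B2m, the light chain of class I molecules, was at 1.56, and the class I gene RT1-CE5 was saturated at 3.86 by 1 probe with another at -4.25. RT1 genes resemble each other, so their probes may read several of them.

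The housekeeping lists, of functions that most cells share, had the highest median rank of the groups of lists. They held 10 of the 115 saturated named genes. Of 172 such genes 150 (87.2%) lay above the olfactory receptor level and 129 above the stricter line, with a median rank of 86.7. Ribosomal protein genes had 63 of 64 above the level and 34 in the top 10%. Rplp1, Rps27a, Rpl8 and Rpl13a were saturated, as were the respiratory chain genes Atp5mc2 and Cox7a2, the reference gene Hprt1 and the chaperone gene Hsp90aa1. The exception was Rplp0 at -2.69 (rank 49.2), and it lay at -3.07 and -2.87 on the later arrays. Of 36 respiratory chain genes 35 lay above the level, and Ndufs1 at -3.02 did not. Of 23 common reference genes 21 lay above the level and 12 in the top 10%, with Actb at 2.21, Gapdh at 1.58 and Tbp at 1.35. Ldha (-4.16) and Gusb (-4.52) lay below the level. Of 22 stress genes 19 lay above it, and Sod1 at 3.51 was among the highest unsaturated genes. Of 20 cholesterol synthesis genes 14 did, with Insig1 and Hmgcs1 saturated, while Abca1, a cholesterol exporter, was not detected. Of 11 cell division genes 2 did, Cdc20 and Pcna, though another Pcna probe lay at -3.91, and Cdk1 was at -4.43. Ribosomal protein genes have many near copies in the genome, so their probes may read more than 1 gene.

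Genes typical of other organs gave the opposite picture. Of 134 measured genes 84 (62.7%) were detected, 25 (18.7%) lay above the olfactory receptor level and 7 (5.22%) above the stricter line, with a median rank of 29.3. Eye lens and photoreceptor genes had none of 14 above the level, with a median rank of 14.5, and the detected members had a median of 30.5 among detected probes. Liver genes had 5 of 31, and Alb, serum albumin, was at -4.41, -7.26 and -8.60 by its probes, of which the last is at the floor of the array. Tf, transferrin, which oligodendrocytes also make, was at 1.49. Of 25 muscle genes 4 lay above the level and of 18 skin and keratin genes 3 did.

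Some of these organ genes were nevertheless bright. Prm1, a protamine of sperm, was at 2.78 (rank 94.9) in sham, 3.00 on day 1 and 2.93 on day 7. Gapdhs, the sperm form of GAPDH, was at 2.54, 3.65 and -1.62 on the arrays in the same order. Cela2a, a pancreatic elastase, was at 2.39, 3.51 and -2.43. Cyp4a2, a liver fatty acid hydroxylase, was at 0.70, 2.46 and -4.03. Each of these 4 rests on 1 spot per array. Ins1, an insulin gene, was at 0.05 with an SD of 0.10 over 10 spots, and Insl3, a testis hormone, at 0.37. Whether these probes read the named gene or another RNA was not tested, and the same holds for any bright probe that stands alone.

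Probes of the same gene often disagreed about level. Of 1602 named genes with 2 probes or more, the levels of the 2 brightest differed by a median of 2.17 log2, with a 90th percentile of 6.08. This is far above the median SD of 0.095 between spots of the same detected probe. Both probes lay above the olfactory receptor level in 535 genes, neither did in 462, and 605 (37.8%) had 1 probe on each side. When the brighter probe lay above the level, the other did in 46.9% of 1140 genes. The Spearman correlation between the probes was 0.351 across genes, which share 1 array. Genes whose probes lay close include Mbp (2.75 and 1.75), Vamp2 (3.44 and 3.07), Slc1a3 (2.61 and 2.07) and Gad1. Genes far apart include Ntrk2, Slc12a5 and Scn4b. Since each gene is given by its brightest probe, a gene with more probes had more chances of a high rank.

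**Figure D5:**
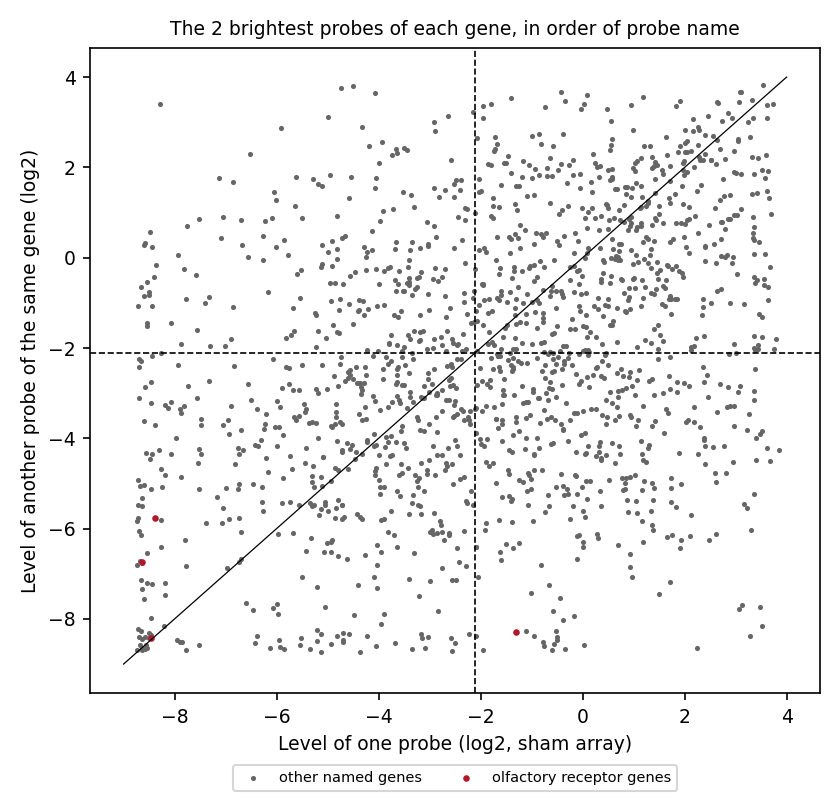
Levels of the 2 brightest probes of 1602 named genes on the sham array, in log2, in order of probe name, with olfactory receptor genes in red. The solid line marks equal levels and the dashed lines the olfactory receptor level of -2.11. Points far from the solid line are genes whose probes disagree, and 605 genes lie in the quadrants where 1 probe is above the level and the other is not.

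The later arrays give the only other reading of the same probes, but they hold operated animals and are not replicates. The Spearman correlation of levels with sham, across probes, was 0.969 for day 1 and 0.960 for day 7, and the median absolute move in rank was 3.01 and 3.64 percentile points. Of the 4098 probes in the top 10% in sham, 3772 (92.0%) were also there on day 1 and 3661 (89.3%) on day 7. Of the 925 saturated probes 713 were saturated on day 1 and 735 on day 7. The share of detected probes was 81.1% in sham, 77.2% on day 1 and 76.9% on day 7. The lowest detected levels were -6.41, -5.59 and -5.55 in the same order. Negative control spots had an SD of 36.7 intensity units in sham, 15.3 on day 1 and 17.2 on day 7. The shares are therefore those of the flag, and they do not show that dim genes were read further down in sham. All 3 arrays lay on 1 slide, and position on it cannot be told apart from group. Of the 55 gene lists, 35 had a median rank within 5 points of sham on day 1 and 40 did on day 7. The largest moves on day 1 were in the cholinergic list, by 17.1 points to rank 68.8, and in the Schwann cell list, by -16.8 points. On day 7 the glycine list moved by -15.7 points, from rank 72.8 to 57.2. The cholinergic list, above its sham rank of 51.7 on day 1, lay below it on day 7, at rank 37.1. The hindbrain list moved by -12.8 points, the erythroid list by 11.6 and the neuronal list by -10.6, from rank 88.3 to 77.7. Each of these later medians lay within the 95% order-statistic interval of its list in sham. That interval ran from 36.0 to 75.3 for the cholinergic list and from 75.4 to 94.4 for the neuronal list. For the erythroid list (21.9 to 97.8) and the hindbrain list (3.78 to 79.8) it spanned all measured members. The interval describes the spread between genes of a list and ignores that the same probes were compared. It therefore does not measure the size of a move. The lists that moved have between 5 (erythroid) and 23 (neuronal) measured members. The probe of each gene was chosen by its sham level, so these moves do not establish a change.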

How the data were processed

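Total RNA of the vestibular nuclei was labelled with Cy3 (1 µg per array) and read in 1 colour, per the labels. The scanner files were made with Agilent Feature Extraction 10.7.3.1, per the file headers. The deposited intensity is the scanner software's processed signal, linear and background-subtracted, and not scaled between arrays. Deposited flags mark spots that are well above background, saturated or outliers. The authors' series table holds 34687 of the probes, and 99.4% of its sham values equal the processed intensity within 0.1%. The choice of its probes is not described in the labels or headers.

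From these, 43379 non-control spots of the sham array were taken, 163 outlier spots were left out, and log2 of the signal minus log2 of the 75th percentile was averaged over the spots of a probe. A probe counts as detected or saturated when more than 50% of its spots have that flag. Probes were named by RefSeq accession through a table of the GRCr8 assembly. The array header names the older build rn4, so no probe coordinates are given. The members, the 55 gene lists and the rules for naming genes were chosen with earlier results of these data known. From each list, its preset key genes and up to 3 of its highest and 3 of its lowest members were named, with the saturated list members, the other-organ genes above the olfactory receptor level and the highest unsaturated genes. Further list members that are named were chosen after their values were seen. The dimmer probes of a gene are not given for every gene named. No test was made, since each group has 1 array, and the number of arrays limits the precision. Alternatives were the 90th and 99th percentile of receptor genes or the 95th percentile of other-organ genes as the line, the mean or dimmest probe of a gene, ranks among detected probes, normexp background correction with an offset of 50 (limma 3.58.1 in R 4.3.3), the authors' table, other detection rules, and outlier spots kept. The normexp correction used the median signal of each spot because the deposited files used here have no mean signal column. Python 3.11.15 with pandas 2.3.3, NumPy 2.4.6 and SciPy 1.17.1 was used. Promoter sequences are RefSeq's. When a gene has several starts, the start listed first was used. Some genes that the naming rule covers are not reported here.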

Additional observations from a re-analysis of the deposited data

How the results depend on the processing

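Each group has 1 array, so no replicate could be left out and nothing here shows how far the levels would vary between animals. No paired analysis was possible because each group has 1 array. The number of detected probes lay between 31033 and 36857 under the other detection rules, against 33231. The line set by olfactory receptor genes matters most for counts. Outside the other-organ lists, 488 list members lay above it, and 300 did with the 99th percentile of receptor genes and 297 with the 95th percentile of other-organ genes. In the other-organ lists 25 did, 51 with the 90th percentile, 7 with the 99th and 7 with the 95th percentile of other-organ genes. Among all named genes other than receptors the share above the line was 47.1%, 61.7% with the 90th percentile and 22.9% with the 99th.

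With ranks taken among detected probes alone, undetected members drop out of the list median. These were 3 of 12 lymphocyte markers, 14 of 31 liver genes and 8 of 21 pancreas genes, among others. In that setting the median moved to 41.6 for complement and Fc receptor genes, 11.3 for lymphocyte markers and 44.1 for neuropeptides. It moved to 35.8 for pericyte, smooth muscle and fibroblast markers, 35.5 for postsynaptic scaffolds and 34.1 for muscle genes. With the dimmest probe of each gene it moved to 41.8 for glucocorticoid-responsive genes and 49.1 for growth factors and their receptors. With that setting the median was 34.4 for Schwann cell markers (35.0 with the mean of probes) and 34.2 for calcium channel genes. Among detected probes it was 30.5 for eye, 28.8 for liver and 45.2 for pancreas genes. These 5 medians and those of the remaining lists stayed within their 95% order-statistic intervals over the lists' members, a description only, under the alternatives run for list medians (mean or dimmest probe, normexp, outlier spots kept, ranks among detected probes). The line was set anew from the receptor genes in each setting. It lay at -2.31 with the mean or dimmest probe and at -2.04 with normexp, against -2.11. A total of 487 members lay above the line and outside the other-organ lists, now without Ttr, which is also a liver gene. Of these, 461 lay above the new line with the mean of a gene's probes, 426 with the dimmest probe and 484 with normexp. Genes without another probe keep their level with the mean or dimmest probe, so those counts say nothing about them.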

Other observations

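Among unsaturated named genes of the sham array without a provisional name, Gnaz, a G protein alpha subunit of neurons, had the highest level, 3.73, followed by Ndn (3.64), necdin, a growth suppressor of neurons, and Cltc (3.62), the heavy chain of clathrin. Ppm1b, a protein phosphatase, lay at 3.61, the small GTPase gene Rab28 at 3.60 and Nono, an RNA-binding protein, at 3.56. The mitochondrial channel Vdac3 was at 3.56 and Gabarapl2, which acts in autophagy, at 3.55. Slc30a3, which loads zinc into synaptic vesicles, was at 3.48, with 3.67 on day 1 and 3.61 on day 7. These levels lie in the range where other probes saturated, so their order carries little information.

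Of the 115 saturated named genes, 24 belong to the lists, 81 were saturated on all arrays and 19 in sham only. Among those outside the lists, and chosen after their values were seen, is Aqp2, a water channel of the kidney, at 3.46 with an SD of 0.09 over 10 spots. It lay at 3.59 on day 1 and 2.00 on day 7. Notch3, a receptor of vascular smooth muscle, was saturated at 3.80 on 1 probe, while the pericyte, smooth muscle and fibroblast list had a median rank of 47.9.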
